A study of Mus musculus with 15 samples.

Results

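Cytosolic ribosomal protein genes encode the proteins of the large (Rpl, Rplp) and small (Rps, Rpsa) ribosomal subunits. Their peaks were taken from 11 lists of HITS-CLIP peaks in P19 cells, a mouse embryonal carcinoma line. HITS-CLIP sequences the RNA fragments crosslinked by UV light to an immunoprecipitated protein, here Ago2 or Sfpq. A peak was taken when its gene symbol was Rpl or Rps with a number, Rplp0 to Rplp2 or Rpsa, and Rps6k kinases, Rps19bp1, Rpl7l1 and pseudogenes were left out. The rule found 249 of 75980 peaks, on 61 of the 87 protein-coding ribosomal protein genes annotated by RefSeq (37 large-subunit and 24 small-subunit genes). A further 7 rows of the dismissed lists repeat peaks of a full list and were counted once.

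All 15 samples were P19 cells transfected with an siRNA and a miRNA mimic and crosslinked after one common transfection time, in 5 groups of 3. Ago2 was precipitated from cells given the let-7a mimic with control siRNA, from cells given siSfpq (siRNA against Sfpq) with control mimic, and from cells given siSfpq with the let-7a mimic. Sfpq was precipitated from control cells and from cells given siSfpq. Control cells also received an siRNA and a mimic. The authors merged the replicates of a condition before calling peaks, so the lists hold 0 values per sample, and the spread between cultures and the depth of a library are unknown for every value given here. For this reason no test was made. Shares are given with 95% Wilson intervals, which cover counting error only and treat peaks as independent although many share a gene. The lists hold no transcript levels, so peaks were not set against mRNA abundance and the cell type was not checked against its markers.

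The 5 full lists answer different questions. The Sfpq list holds peaks stronger in control than in siSfpq cells, and the Ago2-let-7a list holds Ago2 peaks stronger with let-7a than without it. The recruited let-7a list holds Ago2 peaks stronger in siSfpq with let-7a than in let-7a alone. These 3 lists carry the score of dCLIP, a program that compares CLIP signal between conditions, above a threshold of 7. The control Ago2 and recruited endogenous lists carry reads per peak, with a minimum of 10, from pyicoclip, a program that finds peaks over background. The libraries of the control Ago2 list were not analysed here. The recruited endogenous list is described in its header as siCtr and siSfpq cells and in the methods as siSfpq cells, so it is not a contrast of the 2 conditions. Dismissed peaks are those of the Ago2-let-7a and control Ago2 lists that the authors matched to peaks reduced on Sfpq knockdown, classed by their distance to an Sfpq peak as close (under 500 nt), far (up to 7000 nt) or very far. Several lists share libraries, and let-7a cells enter both the Ago2-let-7a and the recruited let-7a lists.

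Ribosomal protein mRNAs are among the most abundant mRNAs of growing cells. Most have short untranslated regions and a 5′ terminal oligopyrimidine tract, through which their translation follows nutrient signals. Introns of many of these genes hold small nucleolar RNAs (snoRNAs), which are released from the spliced intron and guide modification of ribosomal RNA, and the genes have many processed pseudogenes, which are copies of the spliced mRNA elsewhere in the genome. Sfpq is a nuclear RNA-binding protein of splicing and paraspeckles. Ago2 carries miRNAs, which mostly pair through their seed (bases 2 to 8) with 3′ UTRs.

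The sequences below carry the points made later about seed matches and Sfpq words. They come from RefSeq (build GRCm38, which is mm10). The mature miRNAs are the transfected let-7a and miR-302b, a representative of a miRNA family that stem cells express, with the seed in capitals:
mmu-let-7a-5p: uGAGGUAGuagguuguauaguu
mmu-miR-302b-3p: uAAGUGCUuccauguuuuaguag

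The central 30 nt of the highest-scoring coding-sequence Sfpq peaks of at least 30 nt follow, to show what such sites look like. The Rpl19 peak with a score of 47 is left out because it spans only 25 nt. Capitals mark CTGT or CTGA, the DNA form of a word that the study ties to Sfpq:
Rps15a, score 89, chr7:118114805-118114834, minus strand: atcacagagctgggaagattgttgtgaacc
Rplp0, score 55, chr5:115562480-115562509, plus strand: tcggtgccacactccatcatcaatgggtac
Rplp0, score 47, chr5:115560867-115560896, plus strand: atgcgcaaggctatcaggggccacctggag
Rpl11, score 39, chr4:136051643-136051672, minus strand: CTGTtcactgcacagtccgcggagccaagg
Rpl5, score 38, chr5:107903755-107903784, plus strand: gcctggtgccttcacttgctatctggatgc
Rps20, score 35, chr4:3834500-3834529, minus strand: aggttgaagtcaccattgcagatgcctaag
The word occurs in the Rpl11 window and in none of the other windows printed.

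Ribosomal protein genes were found in the Sfpq and the 2 recruited lists at a higher rate than other coding genes, and in the 2 remaining lists at about the rate of all genes. The Sfpq list held 82 peaks on 37 of 87 genes (42.5%, interval 32.7 to 53.0), where 21.1% of all protein-coding genes had a peak. The recruited let-7a list held 72 peaks on 41 genes (47.1%, 37.0 to 57.5; all coding genes 13.6%). The recruited endogenous list held 79 peaks on 49 genes (56.3%, 45.9 to 66.3; all coding genes 37.2%). Counting only peaks on the span and strand of the gene they are named for, it held 40 genes (46.0%, 35.9 to 56.4), where 28.1% of all coding genes had such a peak, and the Sfpq and recruited let-7a lists kept their 37 and 41 genes (all coding genes 18.6 and 11.9%). The Ago2-let-7a list held 10 peaks on 9 genes (10.3%, 5.54 to 18.5), near the 10.7% of all coding genes, and the control Ago2 list held 6 peaks on 5 genes (5.75%, 2.48 to 12.8), near 4.32%. On the span and strand these 2 lists held 7 genes (8.05%; all coding genes 9.79%) and 3 genes (3.45%; all 2.59%). The shares of these 2 lists are thus no result about these genes.

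Both subunits were represented in each list. In the Sfpq list 18 of 53 large-subunit and 19 of 34 small-subunit genes had a peak, in the recruited let-7a list 24 and 17, and in the recruited endogenous list 31 and 18. By symbol, of the 61 genes, 14 were in 1 list, 23 in 2, 15 in 3 and 9 in 4 of the lists, and 0 were in all 5. These counts include peaks off the span or strand of the gene. They were not made over all coding genes, so they are no result about the family. The genes in 4 lists by symbol were Rpl5, Rpl8, Rpl15, Rpl22, Rps9, Rps14, Rps26, Rps29 and Rpsa. For Rps29 this rests on peaks over a neighbouring gene, Rn7s1, and on its own span it had peaks in 2 lists, Sfpq and recruited let-7a. The place of Rps26 among these genes rests on a control Ago2 peak without a strand. Sfpq and recruited let-7a peaks occurred together on 27 genes (31.0%, 22.3 to 41.4), where 10.2% of all coding genes carried both. Among the 37 genes with an Sfpq peak this is 73.0% (57.0 to 84.6), against 48.3% of the coding genes with one. Sfpq peaks occurred with a peak of either recruited list on 32 of the 37 (86.5%, 72.0 to 94.1), an interval that holds the 79.8% of coding genes with an Sfpq peak.

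**Figure D1:**
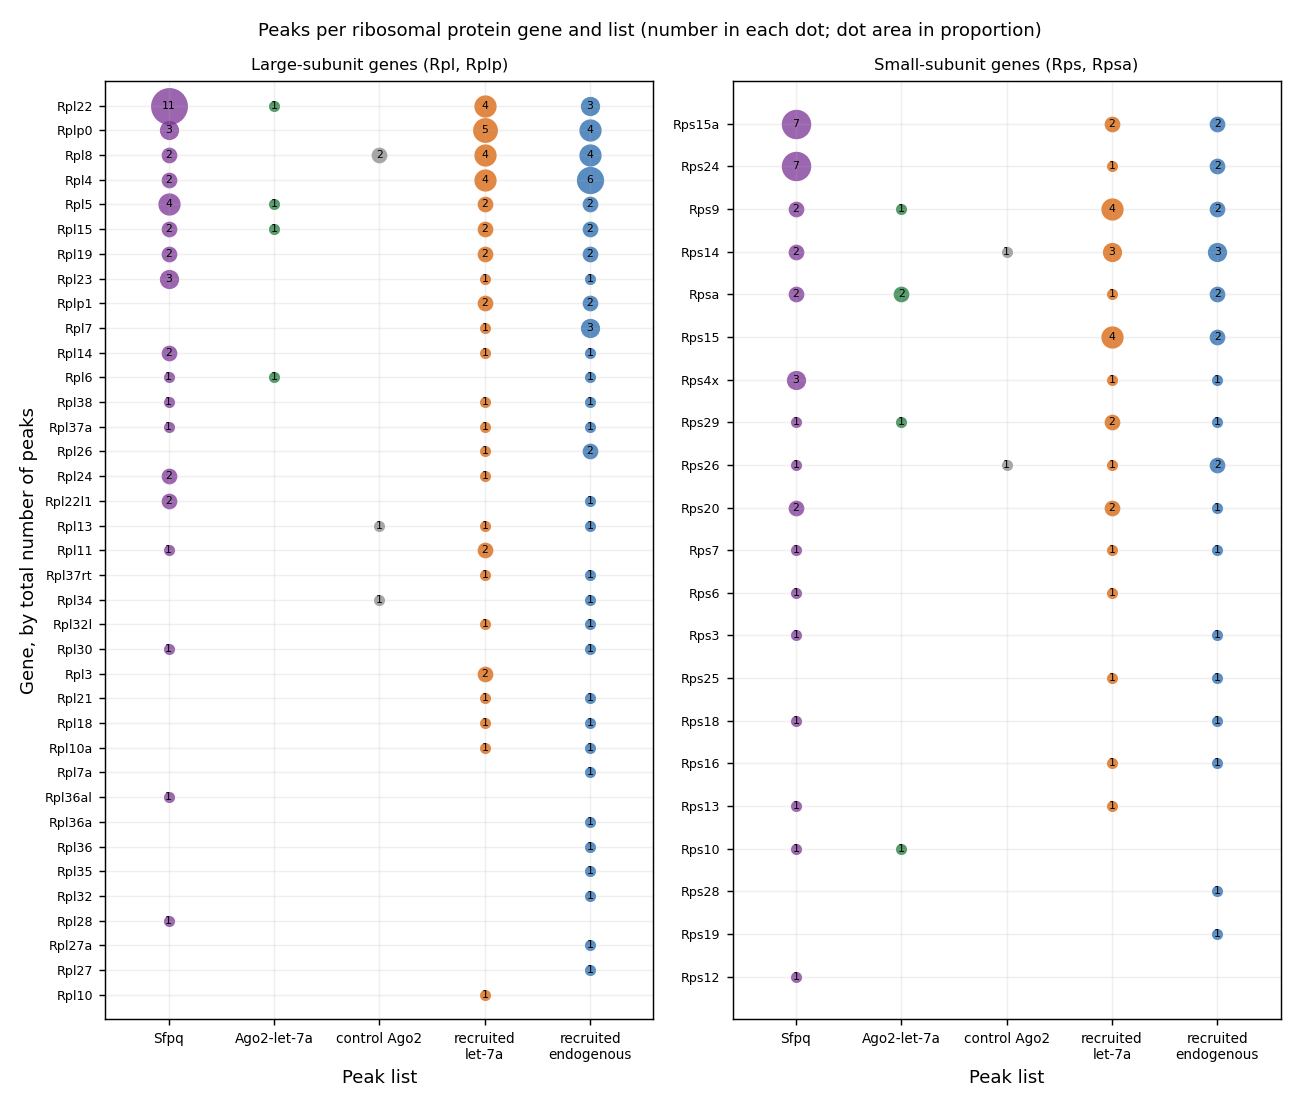
Number of peaks per ribosomal protein gene (vertical axis, by total; 58 of the 61 genes are drawn) in each of the 5 full lists (horizontal axis), with dot area in proportion to the number printed in it and subunits in separate panels. Rpl22 leads with 19 peaks, and Rps15a and Rps24 have 7 Sfpq peaks each.

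By symbol, Sfpq peaks were spread unevenly over these genes. Rpl22, Rps15a and Rps24 held 25 of the 82 peaks (30.5%), and 17 genes had a single peak. The whole list held 29715 peaks on 4950 symbols, and how unevenly these were spread was not measured, so this is no trait of the family. With peaks of any symbol on the gene counted, Rpl4 had 9 Sfpq peaks and Rps3, named after its values were seen, had 7. The median score was 14 (quartiles 10 and 21), against 11 (9 and 16) over all 29715 Sfpq peaks. The highest score was 89, on the coding sequence of Rps15a, a small-subunit protein. Rplp0, the scaffold protein of the ribosomal stalk, followed with 55 and 47, and Rps26, which lies at the mRNA exit channel, with 51 in its 3′ UTR. Rpl19 reached 47, and Rpl5 and Rpl11, which together bind 5S ribosomal RNA, reached 38 and 39. Each of these peaks other than that of Rps26 had its midpoint in the coding sequence, while Rpl22 also reached 39, in an intron.

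The 3 genes with most Sfpq peaks by symbol differed in where the peaks lay. Rps24, whose last coding exons are alternatively spliced, had 7 Sfpq peaks with scores of 8 to 17, each in an intron and none on a snoRNA, and 1 of them spanned 250 nt. Rps15a had 3 peaks in its coding sequence (scores 89, 32 and 9) and 4 in its 3′ UTR (8 to 17), at 463, 3928, 4286 and 4646 nt after the stop codon of the annotated form with the longest coding sequence, whose 3′ UTR of 4726 nt is the longest of these genes. Rpl22, an RNA-binding protein of the large subunit, had 11 peaks. Of these, 5 were intronic (scores 8 to 39), 2 in the coding sequence (18 and 8) and 4 in the 3′ UTR of 1658 nt (10 to 19), where the authors' location for the 4 was non-coding. For comparison, the core genes of this family had a median annotated 3′ UTR of 68.5 nt (n = 78), against 684 nt over 21000 coding genes.

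Peaks on ribosomal protein genes lay in exons more often than peaks in general in the Sfpq and recruited lists, and by the authors' location less often in 3′ UTRs. These shares were not set against region length. Core genes had a median coding sequence of 465 nt and 3′ UTR of 68.5 nt, against 1221 and 684 nt over 21000 coding genes. The part of these lengths in the shares was not tested. By the authors' location, exons held 34 of 82 Sfpq peaks (41.5%, 31.4 to 52.3) against 22% of all Sfpq peaks. Exons held 49 of 72 recruited let-7a peaks (68.1%, 56.6 to 77.7) against 29.2%, and 40 of 79 recruited endogenous peaks (50.6%, 39.8 to 61.4) against 21.6%. The 3′ UTR held 8.54% of the Sfpq peaks (4.2 to 16.6; all peaks 26.9%), 6.94% of the recruited let-7a peaks (3.0 to 15.2; all 35.8%) and 5.06% of the recruited endogenous peaks (1.99 to 12.3; all 13.4%). The intron share of Sfpq peaks, 30.5% (21.6 to 41.1), was close to the 27.9% of all. In the Ago2-let-7a list 1 of 10 peaks was exonic and 6 were intronic, and in the control Ago2 list 2 of 6 were exonic, and both lists are too short for a share to be narrow.

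Peaks that the authors placed at a TTS (transcription termination site) lay in coding sequence more often than such peaks in general. Of 30 such peaks, 20 had their midpoint in the coding sequence (66.7%, 48.8 to 80.8), 8 in the 3′ UTR and 2 outside the gene, where 14.6% of all 3280 peaks at a TTS were in coding sequence. The Sfpq list differed, with 4 of its 11 in the coding sequence and 6 in the 3′ UTR. In core genes the median 3′ UTR was 68.5 nt, against 684 nt over 21000 coding genes, so coding sequence mostly ends nearer the TTS. The part of this in the share of 66.7% was not tested. With the location read anew from the RefSeq transcripts at the midpoint, the coding sequence held 46.3% of the Sfpq (36.0 to 57.1), 81.9% of the recruited let-7a (71.5 to 89.1) and 60.8% of the recruited endogenous peaks (49.7 to 70.8). Over all peaks of these lists the coding sequence held 23.1, 31.9 and 22.4%. Read this way, the 3′ UTR share of the Sfpq peaks was 20.7% (13.4 to 30.7), against 31.6% of all, and that of the recruited let-7a peaks 9.72% (4.79 to 18.7), against 42.1%. For recruited endogenous peaks it was 8.86% (4.36 to 17.2), an interval that holds the 16% of all.

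**Figure D2:**
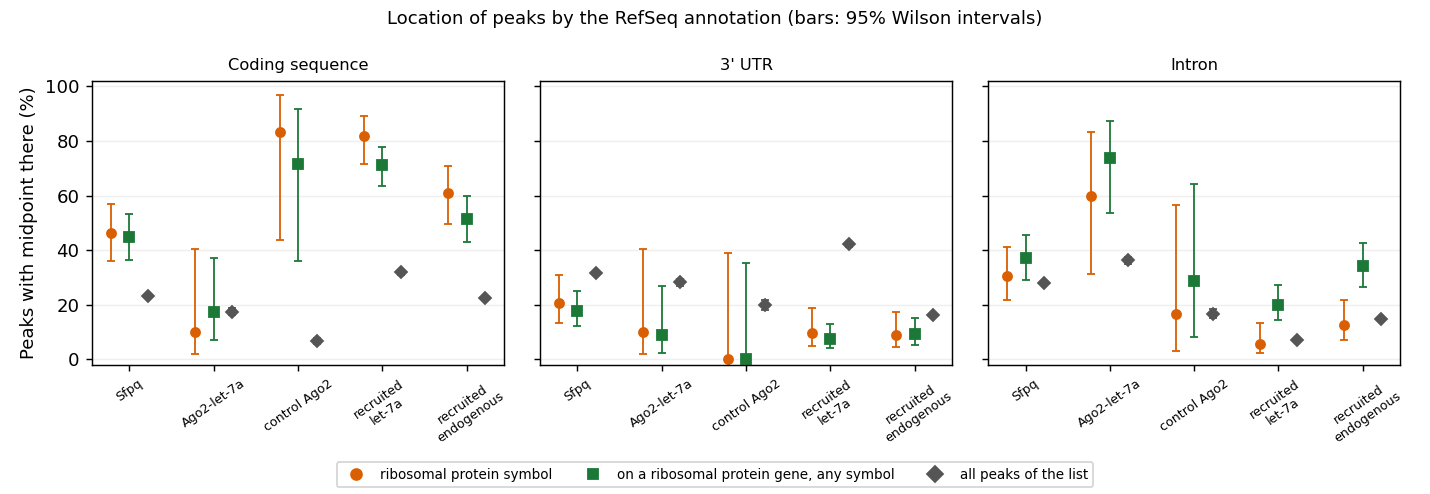
Percent of peaks (vertical axis) with the midpoint in coding sequence, 3′ UTR or intron of the RefSeq annotation, for each list, with 95% Wilson intervals as bars. Circles are peaks with a ribosomal protein symbol, squares are peaks on the span and strand of such a gene under any symbol, and diamonds are all peaks of the list. In coding sequence the circles of the Sfpq (46.3%) and recruited lists (81.9 and 60.8%) stand above the diamonds (23.1, 31.9 and 22.4%).

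On the spliced mRNA, peaks ran along the coding sequence without a shared position. With the coding sequence split into 3 equal parts from the start codon, the Sfpq peaks numbered 11, 16 and 11, the recruited endogenous peaks 11, 19 and 15, and the recruited let-7a peaks 14, 18 and 27. The control Ago2 list had 4 peaks on the gene's strand in the coding sequence, of which 3 lay in the last part. These were Rpl13, Rpl8 and Rps14, with midpoints at -6, -32 and -11 nt from the last base of the stop codon.

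**Figure D3:**
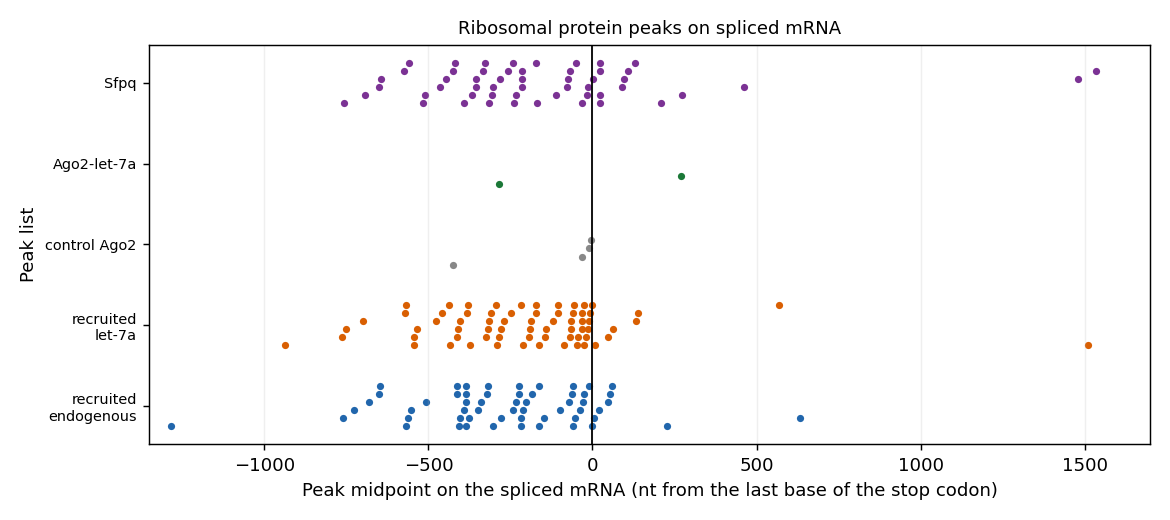
Midpoints of peaks with a ribosomal protein symbol on the spliced mRNA (horizontal axis, nt from the last base of the stop codon, negative in the direction of the start codon) for each list, with points set apart vertically for legibility. Peaks lie mostly to the left of 0, and 3 Sfpq peaks in the Rps15a 3′ UTR at 3928, 4286 and 4646 nt are beyond the axis.

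The Ago2-let-7a peaks were few, and most were intronic. Rpl5 (score 14), Rpl6 (26), Rpsa (17 and 9), Rpl22 (9) and Rps9 (13) carried the 6 intronic peaks, and 4 of these, on Rpl5, Rpl6 and Rpsa, touched annotated snoRNAs. Rps10, which lies at the mRNA entry channel, had an exonic peak of 25 nt (score 18). Rpl15, a large-subunit protein, had the 1 peak in a 3′ UTR (score 8, 125 nt). The highest score, 101, belonged to a peak of 255 nt labelled Rps29 that lay on the opposite strand over Rn7s1, a gene of 7S RNA, the RNA of the signal recognition particle, and therefore describes that RNA rather than Rps29.

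Of the 10 Ago2-let-7a peaks, 7 were in the dismissed lists (70.0%, 39.7 to 89.2), where 80.2% of all Ago2-let-7a peaks were dismissed. Close to Sfpq were those of Rpl5, Rpl6, Rpl15, Rps9 and 1 of Rpsa, and those far from it included the Rpl22 peak. The peaks kept were those of Rps10, the other Rpsa peak and the Rn7s1 peak. None of the 6 control Ago2 peaks was dismissed (interval 0 to 39.0%), where 30.4% of all were. Both backgrounds lie within these intervals.

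The Rpl15 3′ UTR of 1188 nt held peaks of 4 lists. Sfpq had a peak at chr14:18268670-18268804 (score 13) and another at chr14:18268850-18268959 (score 14), both on the minus strand. The dismissed Ago2-let-7a peak ended on the same base as the first of them, at chr14:18268680-18268804. A recruited endogenous peak of 409 nt with 70 reads, chr14:18268580-18268988, spanned both Sfpq peaks, and the recruited let-7a list had peaks with scores of 22 and 25 in the same 3′ UTR.

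The control Ago2 list held Rpl13 (33 reads), Rps14 (29), Rps26 (15), Rpl8 (14 and 11) and Rpl34 (10). The peaks of Rps26 and Rpl34 had no strand. Rpl8 lies beside the peptidyl transferase centre, and its 2 peaks of 92 and 104 nt were in the coding sequence. These genes also carried high read numbers in the recruited endogenous list, with 405 reads for Rps14, 286 and 255 for Rpl8, 122 for Rpl13 and 80 for Rps26, but whether the 2 lists share libraries and how deep these were is unknown, so the numbers are set side by side without comparison.

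Recruited let-7a peaks had a median score of 19.5 (quartiles 14 and 30), against 14 (12 and 19) over all 10264 peaks of that list. Rplp0 had 5 such peaks with scores of 23 to 41, all in coding exons. Rpl4, which lines the nascent peptide tunnel, had 4 (13 to 36), of which 1 was on a snoRNA, and Rpl8 had 4 (19 to 57). Rps9 and Rps15 had 4 each, with scores of 12 to 20 and 15 to 28. Rps14 had 3, with scores of 81, 52 and 13, and Rpl37rt, a retrotransposed copy of Rpl37, had 1 with a score of 80. The highest score, 237, was again on Rn7s1 under the symbol Rps29, while the peak on Rps29 itself had a score of 33.

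Recruited endogenous peaks had a median of 39 reads (quartiles 21 and 78), against 22 (15 and 40) over all 29734 peaks. The last coding exon of Rps14 had 405 reads. Rpl8 followed with 286, 255, 255 and 91 reads in 4 peaks, all in coding sequence. Rpl4 had 6 peaks with 14 to 192 reads and Rplp0 had 4 with 43 to 158. In this list 12 peaks with a ribosomal protein symbol lay outside the gene's span or on the opposite strand or had no strand, and 6 of these 12 were at a promoter.

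Sfpq and recruited Ago2 peaks, which come from different libraries, touched on these genes by at least 1 nt of the same strand. Of the 82 Sfpq peaks, 19 (23.2%, 15.4 to 33.4) touched a recruited let-7a peak, against 11.9% of all Sfpq peaks. Of the 72 recruited let-7a peaks, 19 (26.4%, 17.6 to 37.6) touched an Sfpq peak, against 35.3% of all. For the recruited endogenous list the shares were 23 of 82 (28.0%, 19.5 to 38.6; all 19.9%) and 21 of 79 (26.6%, 18.1 to 37.2; all 15.9%). The share of all peaks lay below the interval for Sfpq peaks at recruited let-7a peaks and for recruited endogenous peaks at Sfpq peaks, and within it for the other 2 shares. The median distance from a peak to the nearest Sfpq peak on either strand was 281 nt for recruited let-7a and 601 nt for recruited endogenous peaks. It was not computed over all peaks, so whether these distances are short for the lists is unknown.

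Peaks of these genes were longer than peaks in general in the recruited endogenous list, with a median of 114 nt (95% interval 97 to 127, from the ordered lengths), against 26 nt over all. In the Sfpq list the median was 45 nt (40 to 55, quartiles 30 and 65), against 55 nt (35 and 85) over all, and in the recruited let-7a list 62.5 nt (50 to 70, quartiles 43.75 and 91.25), against 55 nt (40 and 80), so that in both lists the median of all peaks lay within or at the edge of the interval. Their direction also differed by location, since intronic Sfpq peaks had a median of 55 nt (n = 25), against 50 nt over all, and the 5 recruited let-7a peaks in 3′ UTRs one of 45 nt, against 60 nt. Within exons the medians of the recruited endogenous list were close, with 117.5 nt (n = 40) and 111 nt (n = 6411), and in introns they were 95 nt (n = 15) and 21 nt (n = 7194). Intronic peaks of these genes on a snoRNA had a median of 133 nt (n = 9), and those off a snoRNA 20.5 nt (n = 6), close to the 21 nt of all intronic peaks off snoRNAs. Only 11 of the 15 lay on the gene's strand, and most of the 6 off a snoRNA were on the opposite strand. By RefSeq 10 peaks of this list were intronic. The 20.5 nt thus hardly describes introns of these transcripts.

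**Figure D4:**
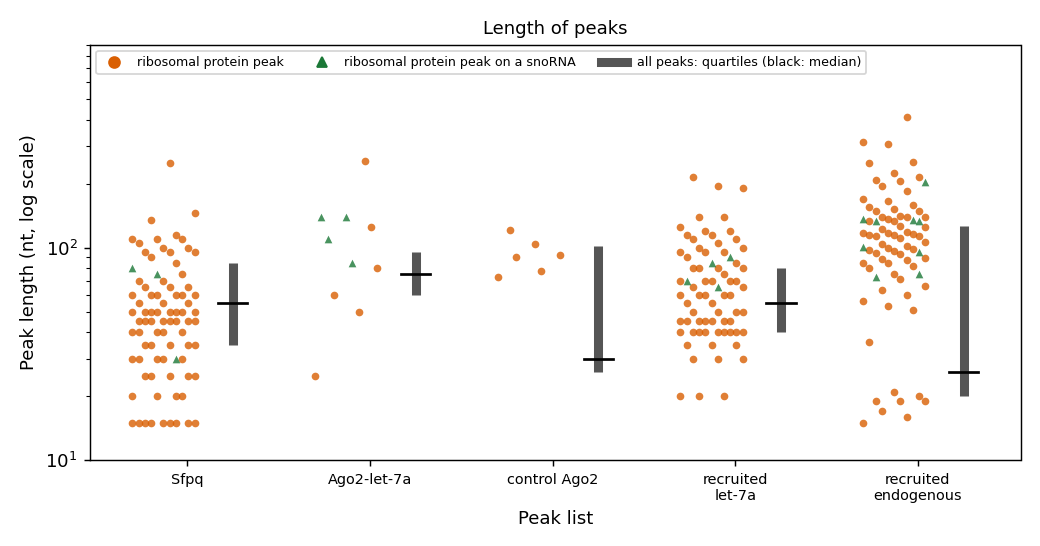
Length of each ribosomal protein peak (vertical axis, nt, log scale) by list, with triangles for peaks on a snoRNA, and for all peaks of the list the quartiles as a grey bar with the median as a black line. Recruited endogenous peaks of these genes have a median of 114 nt, against 26 nt over all peaks.

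Intronic Ago2 peaks on these genes were largely snoRNA peaks. An intronic peak touched an annotated snoRNA on the same strand in 4 of 6 Ago2-let-7a peaks (66.7%, 30 to 90.3), against 0.729% of all intronic peaks of the list. The number was 4 of 4 in the recruited let-7a list (51.0 to 100%; all 4.21%) and 9 of 15 in the recruited endogenous list (60%, 35.7 to 80.2; all 0.653%). Of these 15 peaks, 11 lay on the gene's span and strand, and these included all 9. Among Sfpq peaks it was 3 of 25 (12%, 4.17 to 30; all 0.435%). The Sfpq cases were Rpl4, Rpsa and Rps13, the last named after its values were seen.

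RefSeq places 58 snoRNAs in 30 ribosomal protein genes, and peaks of any symbol reached 53 of them, in 27 genes. In other protein-coding genes peaks reached 98 of 250 snoRNAs (39.2%, 33.4 to 45.4), against 91.4% (81.4 to 96.3) here. The snoRNAs differ in make-up, with a median length of 129 nt in other coding genes and 84.5 nt here. They were not matched for this or for expression of the host gene. By list, the share reached was 75.9% (63.5 to 85.0) for recruited endogenous, 50.0% for recruited let-7a, 36.2% for Sfpq, 24.1% for Ago2-let-7a and 3.45% for control Ago2 peaks. In other coding genes the shares were 26.8, 20.0, 20.0, 3.60 and 1.20%. Of 112 contacts between a peak and one of these snoRNAs, 75 covered over 90% of it.

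Snord14a lies in Rps13 and Snord21 in Rpl5, and both are C/D box snoRNAs, which carry the boxes TGATGA near the 5′ end and CTGA near the 3′ end. Their first and last 30 nt are shown because peaks covered them nearly end to end. Capitals mark TGATGA in the first and CTGA in the last 30 nt. A further CTGA in the first 30 nt of Snord21 is left unmarked:
Snord14a, first 30 nt, chr7:116333228-116333257, minus strand: tcacagTGATGAtggtgttccaacattcgc
Snord14a, last 30 nt, chr7:116333171-116333200, minus strand: tgggttgaccttccttggatgtCTGAgtga
Snord21, first 30 nt, chr5:107904555-107904584, plus strand: gccaaTGATGAcaccacactaactgagcag
Snord21, last 30 nt, chr5:107904619-107904648, plus strand: tcattgtttcaagacgggaCTGAaggcggc
The Sfpq peak on Snord14a ran over chr7:116333170-116333249 (score 21) and the recruited let-7a peak over chr7:116333170-116333259 (score 20). On Snord21 the recruited let-7a peak ran over chr5:107904560-107904644 (score 40) and the recruited endogenous peak over chr5:107904552-107904652 (37 reads). Of the 58 snoRNAs, 21 held TGATGA in the first and CTGA in the last 30 nt on their own strand, as did 32 of the 250 in other coding genes. CTGA is also a word that the study ties to Sfpq.

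**Figure D5:**
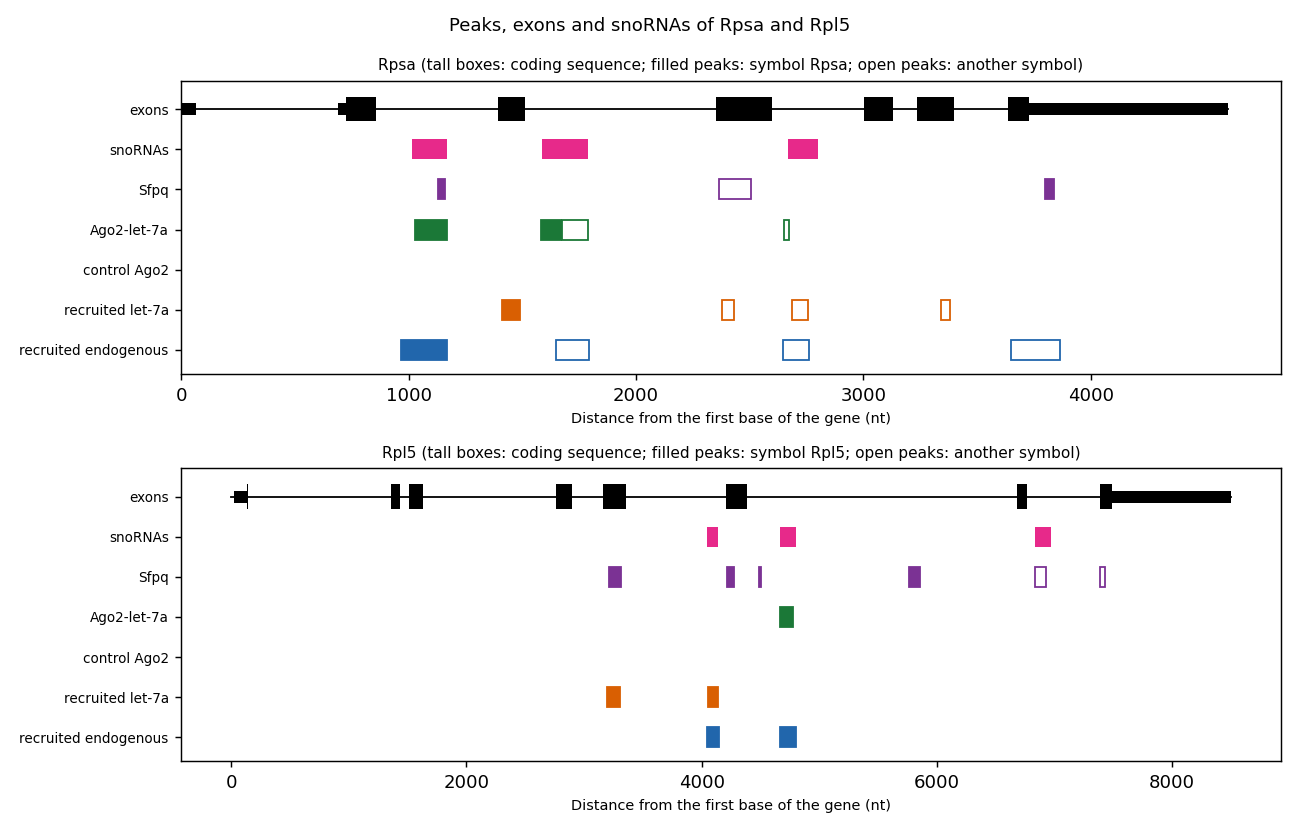
Peaks of the 5 lists along Rpsa (top) and Rpl5 (bottom), by distance from the first base of the gene (horizontal axis, nt), with exons (tall where coding) and annotated snoRNAs, filled where the peak's symbol is that of the gene and open where it is another. On Rpsa, 9 of 15 peaks touch a snoRNA.

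Much of the exonic sequence under these peaks also occurred elsewhere in the genome. A run of 25 nt was called repeated when it occurred elsewhere in the genome on either strand. In exonic Sfpq peaks 67.1% of the runs were repeated, against 6.44% over all exonic Sfpq peaks. In the recruited let-7a exonic peaks the share was 70.0%, against 10.6%, and in the recruited endogenous exonic peaks 58.6%, against 4.87%. Intronic Sfpq peaks of these genes, which pseudogenes do not copy, had 0.954%, against 10.9%. Of the 6 Sfpq sequences printed above, those of Rps15a, Rpl11, Rpl5, Rps20 and the Rplp0 site with a score of 55 came from peaks in which every run was repeated (36 of 36 for Rps15a), and the Rplp0 site with a score of 47 from a peak with 0 of 11. How the mapping treated reads with several positions is not given in the sources used here, and its part in the exonic scores was not tested. Rpl8 offers a measured exception, since 3 of its 4 recruited endogenous peaks, with 255, 255 and 91 reads, had 0 repeated runs.

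Seed matches for the transfected miRNA were not found in these peaks. TACCTC, which pairs with bases 2 to 7 of let-7a, occurred on the transcribed strand in 0 of 246 peaks with a strand (0 to 1.54%), and in 1097 of 75733 peaks over all lists (1.45%), a share that lies within this interval. In the Ago2-let-7a list it occurred in 0 of 10 peaks of these genes (0 to 27.8%) and in 2.19% of all. GCACTT, which pairs with bases 2 to 7 of miR-302b, occurred in 1 of the 246 peaks (0.407%, 0.0718 to 2.27), against 3.20% over all lists. That peak was on the coding sequence of Rpl4 in the recruited endogenous list, with 192 reads, and its word stands in capitals here:
Rpl4, chr9:64177426-64177455, plus strand: atgagctgtatgGCACTTggcggaaggctg
A word match is a description of the sequence and not a measured miRNA site.

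Pooled over locations, Sfpq words were about as dense here as elsewhere, and the densities by location rest on few words. The words CTGT or CTGA occurred 1.40 times per 100 nt of Sfpq peak on these genes and 1.53 times over all Sfpq peaks, and NTGTA 0.669 and 0.698 times (words of the 2 kinds can overlap, and the transcribed strand alone was searched). In exonic peaks the densities were 0.841 against 1.32 and 0.120 against 0.353, from 14 and 2 words on these genes. In introns they were 1.72 against 1.73 and 0.920 against 0.734. In the 7 peaks in 3′ UTRs they were 2.79 against 1.58 and 0.930 against 0.868, from 12 and 4 words. Of 30 nt windows at peak centres, CTGT or CTGA occurred in 24 of 64 (37.5%, 26.7 to 49.7) and 38.6% of all, and NTGTA in 12 of 64 (18.8%, 11.1 to 30) and 17.3%. In windows of exonic peaks alone, CTGT or CTGA occurred in 8 of 27 (29.6%, 15.9 to 48.5; all exonic 33.9%). NTGTA occurred there in 2 of 27 (7.41%, 2.06 to 23.4; all exonic 9.43%). Both of these intervals hold the share of all exonic windows.

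Counting by gene symbol misses many peaks that lie on these genes. On the span and strand of the 87 genes lay 438 peaks of any symbol, in 76 genes, of which 231 carried a ribosomal protein symbol. A further 91 carried another symbol and touched a snoRNA, and 116 carried another symbol elsewhere. Of these 116, 70 were named for a snoRNA and 35 for another coding gene, and 92 had their midpoint in coding sequence although the authors' location was TTS for 60 and promoter for 49. By list the 438 were 130 Sfpq, 23 Ago2-let-7a, 7 control Ago2, 146 recruited let-7a and 132 recruited endogenous peaks.

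The coding-sequence share was as high in this wider set once snoRNA peaks were left out. It was 88.9% for recruited let-7a (104 of 117, 81.9 to 93.4), 76.4% for recruited endogenous (68 of 89, 66.6 to 84.0) and 53.7% for Sfpq peaks (58 of 108, 44.3 to 62.8). Introns then held 0 of 117, 3 of 89 and 26 of 108 peaks. All 29 intronic recruited let-7a peaks on these genes therefore touched a snoRNA.

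The wider set changes which genes stand out. Rpl4 had 32 peaks in place of 12, of which 10 were on its snoRNAs and 21 in its coding sequence. Rps3, a small-subunit protein that also acts in DNA repair and was named after its values were seen, had 21 in place of 2, with up to 232 recruited endogenous reads. Rpsa had 15 in place of 7. Of the 26 genes without a peak by symbol, 17 had a peak on their span (81 peaks, 36 on a snoRNA). Rpl13a, a large-subunit protein known as a translational silencer in the interferon response of human cells, had 15, of which 7 were on snoRNAs. The highest recruited let-7a score on Rpl13a, 87, was that of a peak on Snord32a, and its recruited endogenous peaks had up to 134 reads. Rpl23a had 12, of which 10 were on snoRNAs. The 9 genes with none were Rpl3l, Rpl9, Rpl10l, Rpl29, Rpl35a, Rpl39l, Rps23, Rps23rg1 and Rps27l. Of these Rpl3l, Rpl10l, Rpl39l and Rps27l are paralogs of core genes.

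In the reverse direction, 18 of the 249 peaks with a ribosomal protein symbol did not lie on the gene's span and strand, of which 3 had no strand. The 3 Rn7s1 peaks named Rps29 (scores of 101 and 237, and 76 reads) were among them, and the 2 scores are the highest of the family in their lists.

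Other translation genes give the family a scale. Among 15 further mRNAs with a 5′ oligopyrimidine tract, such as those of elongation factors, 14 had an Sfpq, 12 a recruited let-7a and 13 a recruited endogenous peak, 6 an Ago2-let-7a and 4 a control Ago2 peak. Exons held 30.9% of their Sfpq, 70.0% of their recruited let-7a and 66.1% of their recruited endogenous peaks, where those of ribosomal protein genes held 41.5, 68.1 and 50.6%. Of these shares only that of the recruited let-7a list lies within the interval given above for ribosomal protein genes. The shares of the 15 mRNAs have an error of their own that is not given, so no difference is read from this. Eif4b and Nap1l1 held 38 and 36 of their 139 Sfpq peaks. Of 21 ribosome biogenesis genes (Npm1 is in both groups), 13, 9 and 13 had a peak in the Sfpq, recruited let-7a and recruited endogenous lists. Exons held 27.5, 53.3 and 59.6% of their peaks in these lists. Of 7 non-coding host genes of snoRNAs, such as Gas5, 4 had an Sfpq, 3 a recruited let-7a and 4 a recruited endogenous peak. Of 78 mitochondrial ribosomal protein genes, whose products form a separate ribosome, 15 (19.2%), 8 (10.3%) and 25 (32.1%) had one, near the rates of all coding genes. Exons held 2 of their 24 Sfpq, 2 of their 12 recruited let-7a and 8 of their 29 recruited endogenous peaks.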

How the data were processed

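HITS-CLIP peaks of Ago2 and Sfpq in P19 cells (15 libraries) were used as the authors listed them. Per the submitters' notes and the methods, reads were trimmed with cutadapt and mapped to mm10 with STAR, unmapped reads with Bowtie2, and replicates were merged before peak calling. For tool versions, and for reads with several positions, nothing is given in the sources used here. The deposited score is that of dCLIP for a difference between conditions, over a threshold of 7, and the deposited counts are the reads in a pyicoclip peak, at least 10. A missing peak can thus be a weak one, and depth per library is unknown. Gene symbol and location were the authors'. Dismissed peaks were matched to the full lists by position and strand (the authors' overlap was a Jaccard index of 0.1), and 0 columns of unmapped samples were met.

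Locations were also read from RefSeq GRCm38.p6, of the same build, at the peak midpoint, exons before introns. Positions were read as 1-based with both ends included, and a shift of 1 nt cannot be told from the files, whose dCLIP peaks run in bins of 5 nt. A snoRNA was touched by an overlap of 1 nt on the same strand. Words of 25 nt were counted over the placed chromosomes. Positions on mRNA used the RefSeq transcript with the longest coding sequence. Core genes are those whose symbol does not mark them as a copy of another by the suffix l or rt. Rps23rg1 does not carry such a suffix and was counted among them. Symbols were used as given; an older symbol of Rps23rg1 named 1 Sfpq and 1 recruited let-7a peak, both on the strand opposite to that gene. Functions were tested on simulated data. Python 3.11.15, SciPy 1.17.1, NumPy 2.4.6 and matplotlib 3.10.9 were used.

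The members and the lists of other translation genes (further oligopyrimidine-tract mRNAs, ribosome biogenesis, non-coding snoRNA hosts, mitochondrial ribosomal proteins) were chosen with earlier results of these data known. Genes were named by rule: those in an Ago2-let-7a, control Ago2 or dismissed list, the 10 with most Sfpq, recruited let-7a or recruited endogenous peaks or with the highest Sfpq scores (ties included), the highest peak of each list, and those in 4 or more lists. Others are named as having no peak, in counts of 5 or fewer, or as named after their values were seen. Values of a few single genes are not reported here, although counts over the family include them. Alternatives covered symbols, paralogs, thresholds, gene assignment, location, snoRNAs, strand, windows and word length.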

Additional observations from a re-analysis of the deposited data

How the results depend on the processing

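No paired analysis was possible because the lists hold merged replicates and no value per sample, and for the same reason no replicate could be left out. Over 46 results, 172 of 194 alternatives moved a value by less than its interval or a count by at most 1.5 times, and 22 did not. With a score of at least 10 or 20 reads, the Ago2-let-7a peaks fell from 10 to 6, of which 0 were in 3′ UTRs, and the control Ago2 list to 2 peaks on 2 genes, with 0 in exons or introns. With peaks on the gene's span and strand alone, the control Ago2 list held 3 genes and 0 intronic peaks. With the location from RefSeq, the exon share was 83.3% for control Ago2, 83.3% for recruited let-7a and 62.0% for recruited endogenous peaks, and the 3′ UTR share of Sfpq peaks was 20.7%. Counting each gene once per location gave an exon share of 56.2% for recruited let-7a peaks (27 of 48). Without snoRNA peaks, the intron share was 0 for recruited let-7a and 8.57% for recruited endogenous peaks. In exonic Sfpq peaks alone the words fell to 0.841 and 0.120 per 100 nt, from 14 and 2 words. Words of 20 nt raised the repeated share to 37.5, 44.5, 48.0, 70.9 and 54.8% in the Sfpq, Ago2-let-7a, control Ago2, recruited let-7a and recruited endogenous lists.

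Chosen after seeing the data, peaks of any symbol on the genes' span and strand gave 130 Sfpq, 23 Ago2-let-7a (19 genes), 146 recruited let-7a (64 genes) and 132 recruited endogenous peaks. By the authors' location the exon share was then 26.2, 33.6 and 30.3% in the Sfpq, recruited let-7a and recruited endogenous lists, and the intron share 20.0% for Sfpq, 26.1% for Ago2-let-7a, 0 for control Ago2 and 8.33% for recruited endogenous peaks. With RefSeq locations in addition, the exon share was 71.4% for control Ago2, the 3′ UTR share 17.7% for Sfpq, and the intron share 19.9% for recruited let-7a and 34.1% for recruited endogenous peaks. The high exon shares thus need either the symbol rule or the RefSeq location, because peaks under other symbols carry TTS or promoter as the authors' location. The cause of the other changes was not tested.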
